A study of Mus musculus with 10 samples.

Results

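The genes described here are 10 markers of macrophages and other myeloid cells: Csf1r, Cx3cr1, Cd14, Fcgr1, Itgam, Itgax, Cd68, Lyz2, Mrc1 and Cd163. They were chosen by gene symbol, and each of the 10 was found among the 24062 symbols of the count tables. All 10 were among the 17632 genes that had 5 or more counts in at least 1 library and were tested. RNA was extracted from the whole jejunum, a segment of the small intestine, at postnatal day 5, and each group, WT and KSR23, had 5 libraries. WT mice were wild type, and both groups were on the C57BL/6 strain. KSR23 mice carried a cassette in the ROSA26 locus for both subunits, p19 and p40, of the cytokine interleukin-23 (IL-23), placed behind a floxed STOP element, and a cre recombinase under the keratin 14 promoter that switches it on in keratinocytes. The cassette was thus directed to keratinocytes, and the tissue sampled was the intestine. The comparison asked how the jejunum of mice with IL-23 made in the skin differed from that of WT mice, and is read here for the myeloid markers.

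Macrophages of the intestinal lamina propria and muscle depend on signals through the receptor Csf1r, take up bacteria and dying cells, and clear both without strong inflammation. In newborn mice the resident cells come from embryonic precursors, and monocytes from the blood replace much of this pool after birth. The 10 markers fall into groups by what their proteins do. Csf1r and Cx3cr1 are receptors for a growth factor and a chemokine, Cd14 and Fcgr1 bind bacterial lipopolysaccharide and IgG, Itgam and Itgax are integrin chains, Cd68 and Lyz2 belong to lysosomes and secreted granules, and Mrc1 and Cd163 are scavenger receptors.

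Sequences before the start sites of 3 of the markers are shown because these 3 moved in different directions: Itgam and Cd163 rose in KSR23 and Cd68 fell. Each is the 250 bases upstream of the start in RefSeq, build GRCm38.p6, read 5′ to 3′ on the strand of the gene, and capitals mark matches on either strand to GAGGAA, the core letters bound by PU.1, a transcription factor of myeloid cells encoded by Spi1. The positions are chr11:69666171-69666420 on the minus strand for Cd68, chr7:128062390-128062639 on the plus strand for Itgam, and chr6:124304401-124304650 on the plus strand for Cd163.
Cd68: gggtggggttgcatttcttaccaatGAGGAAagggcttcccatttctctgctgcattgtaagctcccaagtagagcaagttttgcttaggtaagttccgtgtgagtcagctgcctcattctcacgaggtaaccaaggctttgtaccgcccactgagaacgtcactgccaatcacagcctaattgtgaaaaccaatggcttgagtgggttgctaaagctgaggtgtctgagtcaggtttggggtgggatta
Itgam: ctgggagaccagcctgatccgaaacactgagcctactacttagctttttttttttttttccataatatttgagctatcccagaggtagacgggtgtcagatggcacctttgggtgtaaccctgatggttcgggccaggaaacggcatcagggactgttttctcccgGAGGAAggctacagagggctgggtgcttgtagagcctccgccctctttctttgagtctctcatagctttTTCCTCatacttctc
Cd163: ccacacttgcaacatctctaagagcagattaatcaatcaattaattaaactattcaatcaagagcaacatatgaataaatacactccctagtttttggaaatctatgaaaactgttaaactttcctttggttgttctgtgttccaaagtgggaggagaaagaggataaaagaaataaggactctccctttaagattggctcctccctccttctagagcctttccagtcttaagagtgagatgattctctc
Of the 10 markers, 8 had a promoter in the reference table, and 4 of these 8 held GAGGAA on either strand: Mrc1 held 3 copies, Itgam 2, Cd68 1 and Fcgr1 1. Among all 32851 promoters of the same length 23.3% held it. The letters TTCNNNGAA, bound by STAT factors, occurred on either strand in Fcgr1 alone among the 8 markers and in 7.02% of all promoters. The copies of the 2 motifs in Fcgr1 did not overlap. Cd163 held no copy of either motif in this window, and Itgam and Cd68, which moved in opposite directions, both held GAGGAA.

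The libraries held 25.5 to 60.9 M counts in genes (M, 1e6). The mean total was 29.0 ± 2.97 M in WT and 43.2 ± 12.9 M in KSR23 (SD, n = 5 each; two-sided exact permutation p = 0.0238), and levels are therefore given as CPM, counts for each M of a library total scaled by trimmed means (TMM). A floor of 3 counts was 0.0492 to 0.118 CPM. Replicates 4 and 5 lay between the others at most genes. Over 9737 genes above 5 CPM each was the highest or lowest library of its group at 8.54% to 18.4% of genes. Replicates 1 to 3 were so at 45.7% to 75.6%, and 40% is the share for exchangeable libraries. Libraries that lie between the others narrow the spread within a group, so p-values from all 10 libraries may be too small. Why these libraries lay so was not tested. The sum of 4 Y-linked genes was 6347, 4361, 492, 5831 and 4471 counts in WT replicates 1 to 5. In those of KSR23 it was 9035, 9, 1, 4330 and 1. KSR23 replicates 2, 3 and 5 thus held next to no Y-linked RNA and no WT library did so, so that the sexes were not balanced between the groups. Values from replicates 1 to 3 alone and from a fit with the Y-linked level as a covariate are given for each of the 4 called markers where they end its call. Of the 44 other list genes named below as called, 7 were also called in replicates 1 to 3 alone (Lbp, Tlr2, Lyz1, Ltf, Retnlg, Cpa3 and Krt20). With the Y-linked covariate 10 of the 44 were no longer called: Ccl2, Hp, Tlr4, Itgae, Ly75, Cd84, Chil3, Elane, Ccr7 and Cd209a. A lost call was not always a smaller change. The log2 fold change of Cd84 went from −0.90 to −1.01 with the covariate, and that of Chil3 from 2.57 to 1.29. The quasi-likelihood F test ended 7 of the 44 calls: Tlr4, Chil3, Elane, Ccr7, Cd209a, Siglech and Cdh1. With a trend of fold change with transcript length taken out (described further on), 15 were no longer called: Arhgdib, C1qb, Cd209a, Cd52, Cdh1, Fcer1g, Itgae, Itgal, Lcp1, Ly75, Nkg7, Runx1, Siglech, Tlr4 and Tyrobp.

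Of the 10 markers, 4 differed between the groups at an adjusted p under 0.05 in edgeR's likelihood ratio test, against 18.5% of all genes tested. Cd14, Cd163 and Itgam were higher in KSR23 (3 of 10, against 9.73% of all genes) and Cd68 was lower (1 of 10, against 8.76%). For 4 markers the 2 groups were apart in CPM, against 14.4% of all genes: Cd14 and Cd163 lay above WT (7.41% of all genes did so) and Cd68 and Fcgr1 below it (6.99%). The median log2 fold change (KSR23 over WT) was −0.18 over the markers and 0.03 over all genes. With edgeR's quasi-likelihood F test the call of Itgam was lost and the others were kept (3 of 10, against 15.4% of all genes). With replicates 1 to 3 alone, 0 of the 10 passed either test, against 3.36% of all genes in the likelihood ratio test, and 2, Cd14 and Cd163, had an unadjusted p under 0.05 in both tests. With the Y-linked covariate 2 of 10, Cd14 and Cd68, were called, against 14.7% of all genes. In bulk tissue, fewer cells of a type and less RNA of a gene per cell cannot be told apart.

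**Figure D1:**
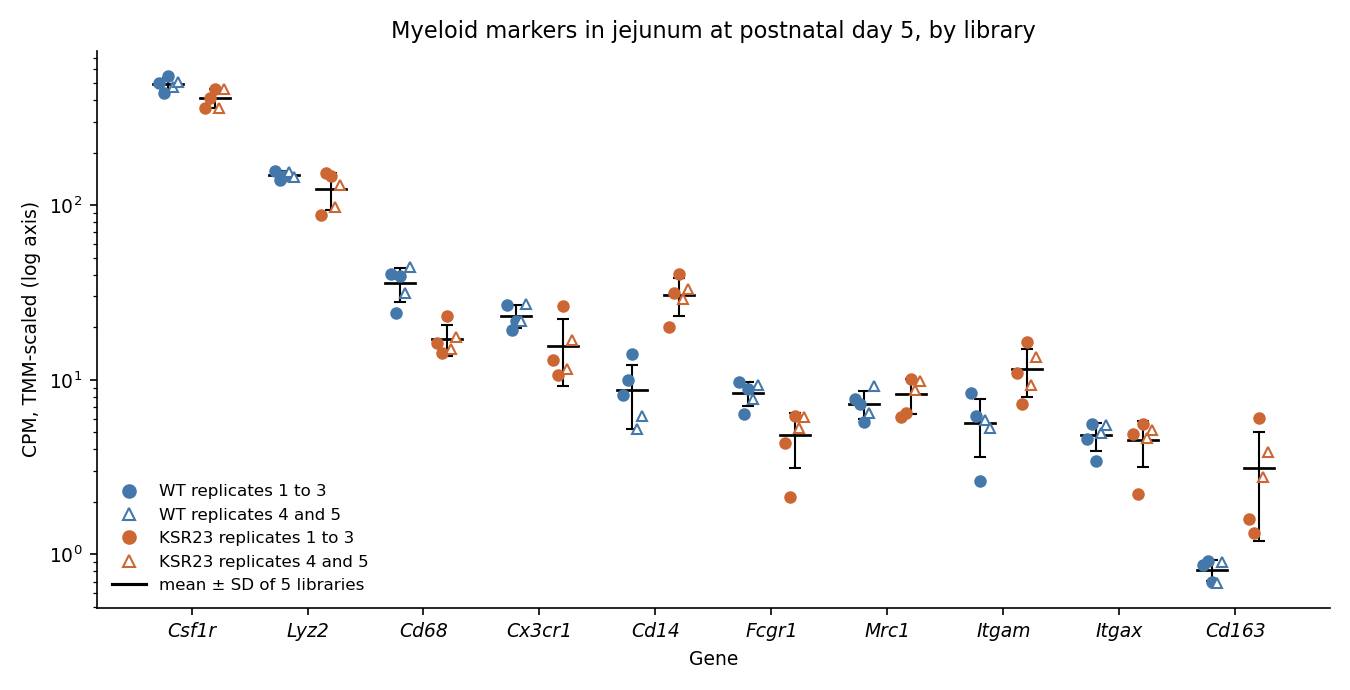
CPM (log axis) of the 10 markers in each of the 5 WT (blue) and 5 KSR23 (orange) libraries, ordered by the WT mean; filled circles are replicates 1 to 3, open triangles replicates 4 and 5, and the bars are the mean ± SD. The 5 KSR23 libraries lie above the 5 WT libraries for Cd14 and Cd163 and below them for Cd68 and Fcgr1, and the groups overlap for the other 6 markers.

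Levels were compared between genes per kilobase of annotated exon. In WT the order was Lyz2 (113 ± 5.49 CPM per kilobase), Csf1r (85.5 ± 6.91), Cd68 (28.6 ± 6.36), Cx3cr1 (5.17 ± 0.7498), Cd14 (5.05 ± 2.02), Fcgr1 (3.24 ± 0.519), Mrc1 (1.14 ± 0.207), Itgam (1.13 ± 0.410), Itgax (1.003 ± 0.183) and Cd163 (0.149 ± 0.0205; SD, n = 5 throughout). Neighbours whose ranges overlapped in WT were Cx3cr1 and Cd14, Cd14 and Fcgr1, Mrc1 and Itgam, and Itgam and Itgax, and the other neighbours lay apart in all 5 libraries. In KSR23, Cd14 came next after Csf1r, at 17.7 ± 4.28 CPM per kilobase, ahead of Cd68 at 13.7 ± 2.80, although the ranges of these 2 overlapped and Cd14 was the higher in 4 of 5 libraries. Per kilobase of the longest annotated transcript, Cd14 (5.33) and Cx3cr1 (5.19) change places in WT. Cd163 stayed last in KSR23 at 0.572 ± 0.354 CPM per kilobase, and its range overlapped that of Itgax. The spread between libraries, as the SD over the mean, was smallest for Lyz2 in WT (4.85%) and for Csf1r in KSR23 (12.7%), and largest for Cd14 in WT (39.96%) and for Cd163 in KSR23 (61.9%).

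Csf1r (chr18:61100598-61132149, plus strand, build mm10), the receptor for colony-stimulating factor 1 and interleukin-34, was the marker with the most counts. Its level was 498, 439, 548, 477 and 504 CPM in WT replicates 1 to 5 and 359, 411, 462, 359 and 463 CPM in KSR23 replicates 1 to 5. The groups overlapped, with KSR23 replicates 1 and 4 the lowest of all 10. The log2 fold change was −0.26 (SE 0.22, 95% interval −0.70 to 0.17, adjusted p = 0.458), which leaves room for a loss of up to 0.70 on the log2 scale. Of the 75-base stretches of Csf1r, 13.9% also lie in Hmgxb3, a gene on the opposite strand whose exons overlap, and the library kit does not mark strand. Csf1 was at 4.46 ± 2.48 CPM in WT and 4.44 ± 4.85 CPM in KSR23 (log2 fold change −0.0028, SE 0.75, adjusted p = 0.998), with overlapping groups. Interleukin-34 (Il34) was at 9.68 ± 1.84 CPM in WT and 15.2 ± 4.43 CPM in KSR23 (log2 fold change 0.65, SE 0.31, adjusted p = 0.133), and its groups overlapped.

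Cx3cr1 (chr9:119901616-120069879, minus strand) is the receptor for fractalkine, the membrane-bound chemokine Cx3cl1 that intestinal epithelium and endothelium make. Cx3cr1 was at 26.7, 19.4, 21.6, 21.9 and 27.0 CPM in WT and at 12.9, 10.7, 26.5, 11.5 and 16.9 CPM in KSR23. In KSR23, 4 of the 5 libraries lay below every WT library and replicate 3 lay within the WT range. The fitted change was −0.57 on the log2 scale (SE 0.32; adjusted p = 0.226). Without KSR23 replicate 3 it was −0.84 (adjusted p = 0.0183), so that 1 library decided the call. The ligand Cx3cl1 rose from 170 ± 39.8 to 362 ± 72.0 CPM (log2 fold change 1.09, SE 0.26, adjusted p = 6.77e-04), and its groups did not overlap.

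Cd14 (chr18:36725067-36726798, minus strand) binds bacterial lipopolysaccharide and hands it to the receptor complex of Tlr4 and Ly96. Its level was 8.14, 10.04, 14.1, 5.24 and 6.23 CPM in WT and 19.9, 31.2, 40.5, 28.9 and 33.0 CPM in KSR23. Every KSR23 library lay above every WT library, and this also held among replicates 1 to 3. The mean was 3.51-fold higher in KSR23 (8.74 ± 3.49 against 30.7 ± 7.41 CPM, SD, n = 5 each), or 1.81 ± 0.34 on the log2 scale (estimate ± SE; adjusted p = 9.35e-06 in the likelihood ratio test and 0.00212 in the quasi-likelihood F test). Replicates 1 to 3 alone gave 1.54 (adjusted p = 0.133).

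Among the other genes of lipopolysaccharide sensing, Lbp, Tlr2 and Tlr4 rose and Ly96 did not pass the test. Lbp, the serum protein that delivers lipopolysaccharide to Cd14, was at 9.53, 6.12, 5.32, 6.45 and 8.07 CPM in WT and at 30.0, 44.1, 59.7, 36.4 and 49.4 CPM in KSR23. Its lowest KSR23 library lay above its highest WT library by more than 3-fold, a log2 difference of 2.63 (SE 0.31, adjusted p = 7.46e-14). Tlr2, a receptor of bacterial lipopeptides that Cd14 also serves, rose from 2.47 ± 0.970 to 11.8 ± 4.69 CPM (log2 fold change 2.26, SE 0.38, adjusted p = 5.70e-07). Both Lbp and Tlr2 also passed the likelihood ratio test in replicates 1 to 3 alone (adjusted p = 6.11e-04 and 0.0228). Tlr4 rose from 1.60 ± 0.438 to 3.03 ± 0.876 CPM with overlapping groups (adjusted p = 0.0491). The call of Tlr4 was lost in 19 of 24 alternatives, among them the quasi-likelihood F test (0.0618), replicates 1 to 3 alone (0.554) and the Y-linked covariate, where its log2 fold change was 0.47 (0.490). Ly96 was at 36.6 ± 8.19 and 19.6 ± 9.20 CPM (adjusted p = 0.0824). Cd14, Lbp and Tlr2 can also be made by epithelial cells, and which cells made them here was not tested. Of 8 listed epithelial markers 2 rose (Krt20 and Cdh1), against 9.73% of all genes, and 6 did not pass the test. The call of Cdh1 was lost in the quasi-likelihood F test and with the length trend taken out.

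Fcgr1 (chr3:96282909-96293969, minus strand), the high-affinity receptor for IgG, was at 9.66, 6.36, 8.81, 7.75 and 9.35 CPM in WT and at 4.32, 2.13, 6.20, 5.30 and 6.10 CPM in KSR23. Every KSR23 library lay below every WT library, by a narrow gap between 6.20 and 6.36 CPM. The log2 fold change of −0.80 (SE 0.34) did not pass the likelihood ratio test (adjusted p = 0.0822), and it passed with DESeq2 (adjusted p = 0.0409). The related low-affinity receptor genes Fcgr3 and Fcgr4 likewise had all KSR23 libraries below all WT libraries and did not pass the likelihood ratio test. Fcgr3 was at 54.0 ± 7.34 against 31.1 ± 10.97 CPM (adjusted p = 0.0585, and 0.0255 with DESeq2). Fcgr4 was at 11.2 ± 1.44 against 7.59 ± 2.09 CPM (adjusted p = 0.180, and 0.0785 with DESeq2). The third, Fcgr2b, the inhibitory receptor, had the higher mean in KSR23 (2.95 ± 0.381 against 4.92 ± 2.23 CPM, log2 fold change 0.73, SE 0.36, adjusted p = 0.150) with overlapping groups, and with the Y-linked covariate its sign turned (−0.03).

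Fcer1g and Tyrobp encode the short adaptor chains through which Fc receptors and many other myeloid receptors signal, and both fell. Fcer1g was at 68.2, 53.7, 83.3, 60.3 and 75.6 CPM in WT and at 27.0, 34.7, 43.9, 25.4 and 35.1 CPM in KSR23 (log2 fold change −1.04, SE 0.27, adjusted p = 0.00213). Tyrobp went from 81.3 ± 11.2 to 35.4 ± 8.88 CPM (log2 fold change −1.20, SE 0.27, adjusted p = 2.53e-04). Neither gene's groups overlapped. Both transcripts are short, and both calls were lost when a trend of fold change with transcript length was taken out (adjusted p = 0.280 and 0.117).

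Itgam (chr7:128062640-128118491, plus strand) encodes CD11b, the chain that joins Itgb2 to form complement receptor 3. Its level was 8.39, 6.19, 2.64, 5.87 and 5.33 CPM in WT and 10.9, 7.29, 16.4, 9.33 and 13.6 CPM in KSR23. KSR23 replicate 2 fell within the WT range and the other 4 KSR23 libraries lay above it. The mean was 2.02-fold higher, or 1.01 on the log2 scale (SE 0.36; adjusted p = 0.0341). This call was lost in the quasi-likelihood F test (0.0521), in replicates 1 to 3 alone (0.507) and with the Y-linked covariate (0.199), where the log2 fold changes were 1.01, 1.04 and 0.91, and without any 1 of WT replicates 3, 4 and 5 (0.0921, 0.0638 and 0.0953) or KSR23 replicates 3 and 5 (0.0735 and 0.0918). Of the 75-base stretches of Itgam, 65.2% also lie in Gm49368, a gene model on the same strand that overlaps it and has no row in the count tables.

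Itgax (chr7:128129547-128150657, plus strand), or CD11c, a chain of macrophages and dendritic cells, was at 4.61, 5.59, 3.41, 4.98 and 5.48 CPM in WT and at 4.91, 2.22, 5.56, 4.68 and 5.17 CPM in KSR23. KSR23 replicate 2 was the lowest of the 10 libraries and the rest were intermixed. The log2 fold change was −0.09 (SE 0.33, 95% interval −0.73 to 0.54, adjusted p = 0.885), and its sign turned without WT replicate 2 or without KSR23 replicate 2. Itgb2, the beta chain that both integrins share, was at 11.1 ± 1.41 and 12.2 ± 2.67 CPM (log2 fold change 0.13, adjusted p = 0.816).

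Icam1, a ligand of these integrins on endothelium and epithelium, rose from 18.0 ± 2.21 to 49.1 ± 3.44 CPM (log2 fold change 1.44, SE 0.25, adjusted p = 6.18e-07) with no overlap. Itgal and Itgae, 2 other alpha chains, rose at low levels, and Itgad, a further chain whose counts ran no higher than 14, did not pass the test. Itgal, or CD11a, went from 2.03 ± 0.595 to 4.28 ± 0.988 CPM (adjusted p = 0.0124), and Itgae, or CD103, which intraepithelial lymphocytes and dendritic cells carry, from 1.63 ± 0.630 to 3.81 ± 0.680 CPM (adjusted p = 0.00415). Both calls were lost with the length trend taken out (0.162 and 0.0769).

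Cd68 (chr11:69664213-69666153, minus strand) encodes a glycoprotein of the lysosomes and endosomes of macrophages. Cd68 was at 40.2, 24.3, 39.4, 31.6 and 44.3 CPM in WT and at 16.3, 14.2, 23.1, 15.0 and 17.5 CPM in KSR23. Every KSR23 library lay below every WT library, although the highest of KSR23 (replicate 3) came close to the lowest of WT (replicate 2). The mean was 2.09-fold higher in WT, and the log2 fold change was −1.06 (SE 0.29, adjusted p = 0.00319, and 0.00939 in the quasi-likelihood F test). Replicates 1 to 3 alone gave −0.92 (adjusted p = 0.490). Lamp1, a lysosomal membrane protein of the same family that most cells make, fell from 164 ± 49.4 to 66.7 ± 18.4 CPM (log2 fold change −1.29, SE 0.31, adjusted p = 6.21e-04). Lamp2, the more abundant member of the family, was at 660 ± 126 and 707 ± 223 CPM (adjusted p = 0.858), and the sign of its small difference turned under 5 of 24 alternatives.

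Lyz2 (chr10:117277331-117282321, minus strand) encodes the lysozyme of macrophages and granulocytes. Its neighbour Lyz1 (chr10:117287797-117292868, minus strand) encodes the lysozyme that Paneth cells of the intestinal crypts secrete. The 2 coding sequences have 447 bases each and differ at 22 of them (95.1% identity), and their longest identical run is 118 bases, longer than a 75-base read. The first 120 coding bases of both (GENCODE M21, build mm10, 5′ to 3′) are shown with the 11 differing bases in capitals, because reads of the 2 genes can be told apart only where such bases fall.
Lyz2: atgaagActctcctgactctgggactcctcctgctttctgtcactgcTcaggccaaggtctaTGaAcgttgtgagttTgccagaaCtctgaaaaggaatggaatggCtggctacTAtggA
Lyz1: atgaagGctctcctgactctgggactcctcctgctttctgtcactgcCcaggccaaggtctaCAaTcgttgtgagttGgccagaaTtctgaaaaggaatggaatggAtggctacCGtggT
Over the whole exons, 5.96% of the 75-base stretches of Lyz2 also occur in Lyz1, and reads with more than 1 alignment were set apart from the gene counts in the files.

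Lyz2 was at 156, 139, 147, 156 and 145 CPM in WT and at 87.4, 153, 147, 97.3 and 131 CPM in KSR23. KSR23 replicates 1 and 4 lay lowest, and the other 3 lay within or near the narrow WT range. The log2 fold change of Lyz2 was −0.27 (SE 0.25, 95% interval −0.77 to 0.22, adjusted p = 0.504). Lyz1 was at 88.6, 41.1, 48.0, 61.5 and 78.5 CPM in WT and at 379, 639, 834, 464 and 692 CPM in KSR23. Its lowest KSR23 library lay above its highest WT library by more than 4-fold, a log2 difference of 3.24 (SE 0.31; adjusted p = 4.03e-19, and 1.91e-06 in replicates 1 to 3 alone). In mean CPM, Lyz1 was 9.47-fold higher in KSR23. The paper describes the newborn mouse gut as without Paneth cells, and which cells made Lyz1 here was not tested.

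Mrc1 (chr2:14229392-14332057, plus strand) encodes the mannose receptor CD206. Its level was 7.80, 7.25, 5.76, 6.45 and 9.20 CPM in WT and 6.14, 6.48, 10.1, 8.73 and 9.80 CPM in KSR23. The groups were intermixed, and the difference was 0.18 on the log2 scale (SE 0.29, 95% interval −0.40 to 0.75, adjusted p = 0.741). Ly75, another receptor of the mannose receptor family, found on dendritic cells and epithelium, rose from 7.17 ± 0.689 to 13.6 ± 1.48 CPM (adjusted p = 0.00459).

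Cd163 (chr6:124304656-124330527, plus strand) encodes the receptor by which macrophages take up haemoglobin bound to haptoglobin. It had 28, 26, 19, 24 and 24 counts in WT and 113, 41, 153, 156 and 136 counts in KSR23. In CPM this was 0.867, 0.919, 0.697, 0.691 and 0.901 against 1.61, 1.32, 6.08, 2.76 and 3.84. Every KSR23 library lay above every WT library, and the KSR23 libraries spread over a wide range from replicate 2 to replicate 3. The mean was 3.83-fold higher, or 1.93 on the log2 scale (SE 0.45; adjusted p = 4.78e-04, and 0.00917 in the quasi-likelihood F test). Replicates 1 to 3 alone gave 1.88 (adjusted p = 0.185), and the Y-linked covariate gave 1.35 (adjusted p = 0.0581), which ended the call. Haptoglobin (Hp), the carrier whose complexes Cd163 binds, rose from 0.756 ± 0.387 to 3.77 ± 2.39 CPM with overlapping groups (log2 fold change 2.31, SE 0.56, adjusted p = 0.00117). This call too was lost in replicates 1 to 3 alone (0.282) and with the Y-linked covariate (1.57 on the log2 scale, adjusted p = 0.123).

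**Figure D2:**
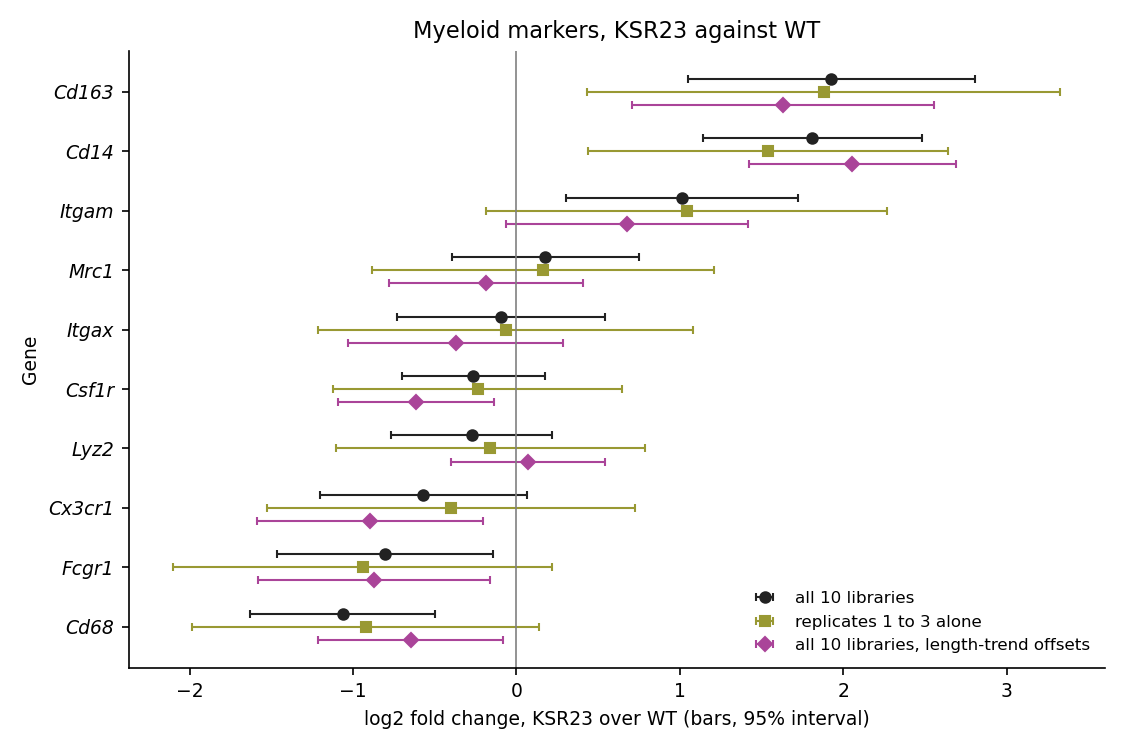
Log2 fold change (KSR23 over WT) of the 10 markers with 95% intervals, from all 10 libraries (black circles), from replicates 1 to 3 alone (olive squares) and from all 10 libraries after a trend with transcript length was taken out (purple diamonds). Cd163 and Cd14 lie above 0 in all 3 fits, and the value of Cd68 moves from −1.06 to −0.65 when the length trend is taken out.

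Csf1r was the most counted marker and its groups overlapped, so each marker was also set against the Csf1r counts of its own library. Whether Csf1r counts follow the number of macrophages was not tested. Per 100 Csf1r counts, Cd14 had 1.76 ± 0.642 counts in WT and 7.42 ± 1.20 in KSR23, Cd163 had 0.167 ± 0.0318 and 0.737 ± 0.387, and Itgam had 1.17 ± 0.450 and 2.78 ± 0.655 (SD, n = 5 each). The groups did not overlap for any of these 3, and for Itgam they overlapped in CPM. Cd68 had 7.24 ± 1.27 in WT and 4.19 ± 0.604 in KSR23, again with no overlap. For Lyz2 the ratio was 30.3 ± 2.40 and 29.8 ± 5.00, and for Lyz2, Cx3cr1, Itgax, Mrc1 and Fcgr1 the groups overlapped. These ratios are a description and were not tested. The longest transcript of Cd68 (1230 bases) is shorter than that of Csf1r (4701 bases), so their ratio takes in the trend with transcript length described next. With that trend taken out, the log2 fold change was −0.65 for Cd68 and −0.61 for Csf1r.

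**Figure D3:**
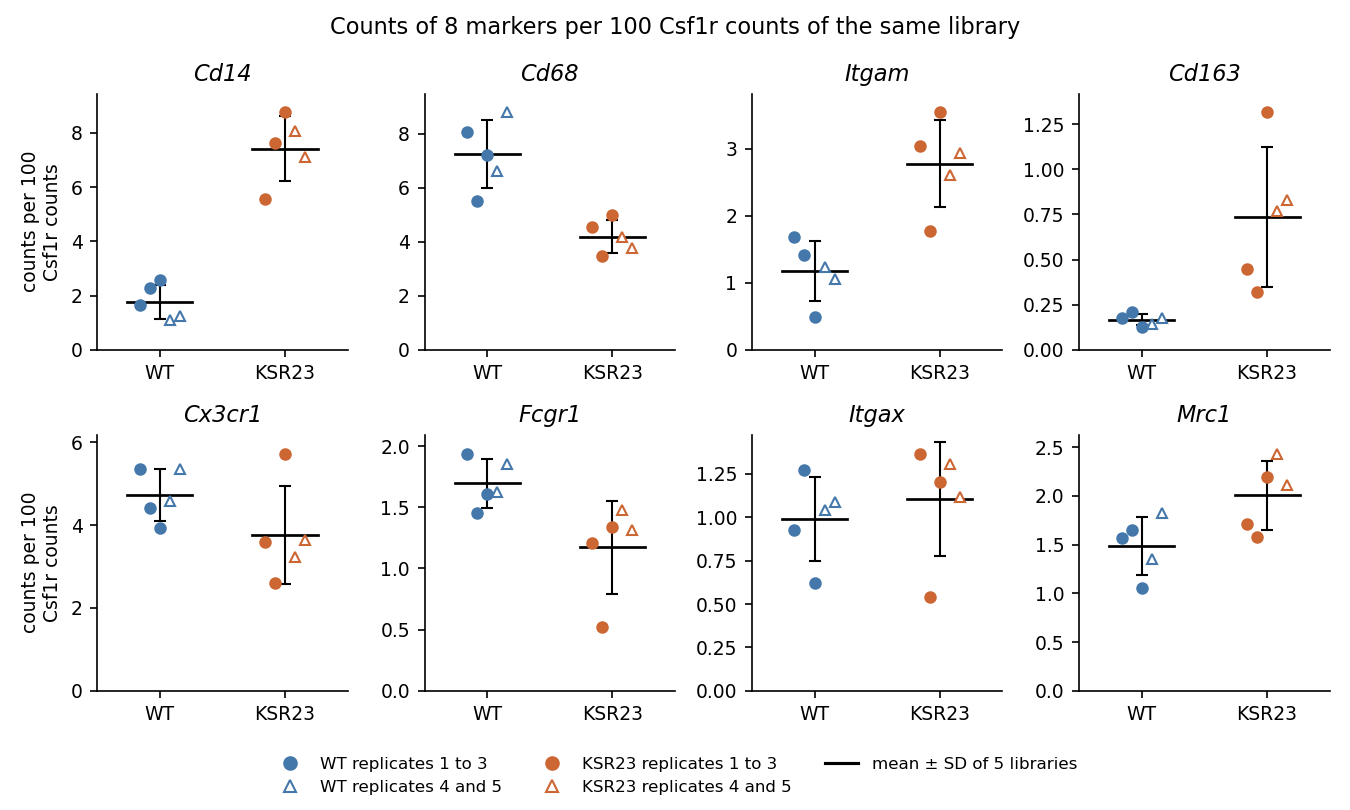
Counts of 8 markers per 100 Csf1r counts of the same library (vertical axes from 0), WT in blue and KSR23 in orange; filled circles are replicates 1 to 3, open triangles replicates 4 and 5, and bars the mean ± SD of 5 libraries. Cd14, Itgam and Cd163 are higher in all 5 KSR23 libraries than in any WT library, Cd68 is lower, and the other 4 overlap.

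Across the whole transcriptome the fold change varied with the length of the longest annotated transcript. Among genes above 5 CPM, the median log2 fold change was −0.36 in the shortest of 5 equal bins of length (112 to 1907 bases), where 19.8% of genes were lower in KSR23 and 5.61% higher, and 0.36 in the longest bin (5102 bases or more). Cd14 (1641 bases), Cd68 (1230 bases) and Lyz2 (1316 bases) belong to the shortest bin, and Csf1r, Cx3cr1 and Itgam, at 4493 to 4701 bases, to the fourth bin, with a median of 0.35. With the trend taken out, an alternative chosen after the data were seen, 2 of the 10 markers were called, against 15.0% of all genes, and both were higher, as were 6.91% of all genes. The value of Cd14 was then 2.06 (adjusted p = 5.44e-08) and that of Cd163 1.63 (adjusted p = 0.00808), while Cd68 (−0.65, adjusted p = 0.119) and Itgam (0.67, adjusted p = 0.240) were no longer called. Csf1r was at −0.61 (adjusted p = 0.0689), and Lyz2 and Mrc1 changed sign (0.07 and −0.18). What gave rise to the trend was not tested.

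**Figure D4:**
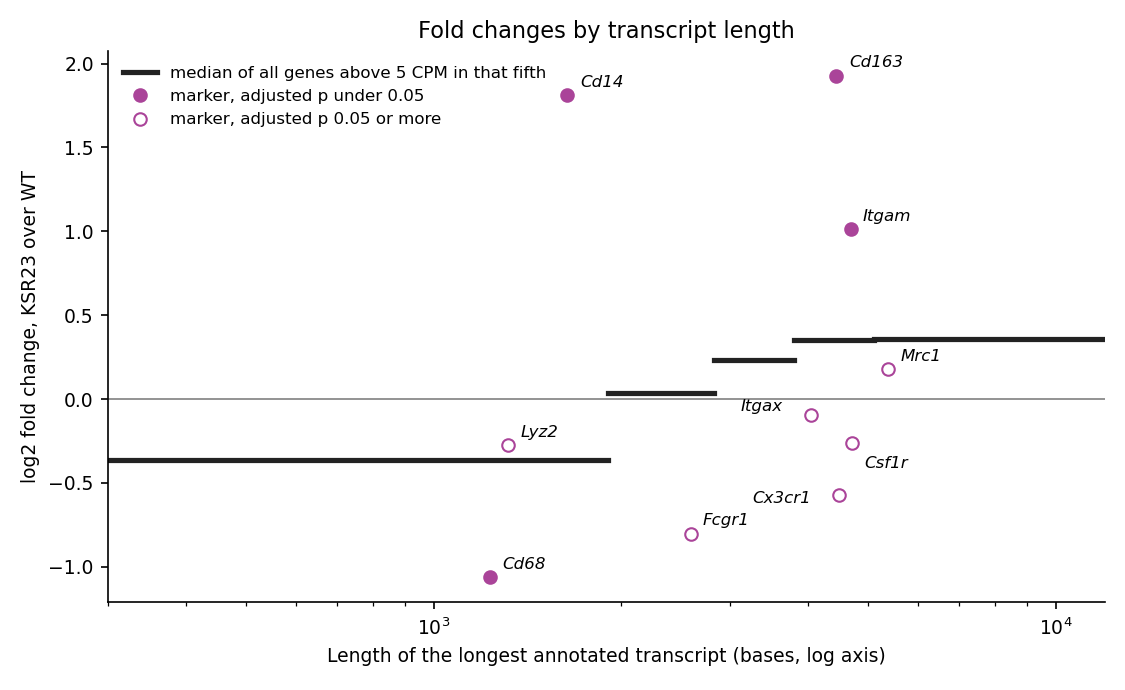
Log2 fold change (KSR23 over WT) against the length of the longest annotated transcript (log axis) for the 10 markers (points, filled where the adjusted p was under 0.05), with the median of all genes above 5 CPM in each of 5 bins of length (black lines). The medians climb from −0.36 to 0.36; Cd14 lies far above the line of its bin, and Csf1r and Cx3cr1 lie below theirs.

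The genes most like Csf1r and Cd14 over the 10 libraries were sought by Pearson's r of log2 CPM among 12889 genes with a mean of at least 1 CPM. For Csf1r they were Use1, Atp5g2, Ndufv3, Eif3k and 1810037I17Rik (r = 0.970 to 0.980). Among the markers, Cd68 (r = 0.849), Cx3cr1 (0.816) and Lyz2 (0.809) were the most like Csf1r. The genes most like Cd14 were Gm3336, 1700024P16Rik, F830016B08Rik, 1700119H24Rik and Bhmt2 (r = 0.951 to 0.966), with log2 fold changes of 2.46 to 6.69, and among the markers Cd163 was the most like it (r = 0.838). With the group means taken out, r of Cd14 was 0.374 with Cd163 and 0.529 with Csf1r, against −0.480 with Csf1r before. The points share libraries, groups and the length trend, and 1 of the 5 genes named for Csf1r and 0 of those for Cd14 were named again with replicates 1 to 3 alone, so these are descriptions of the 10 libraries.

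Other genes of macrophages were read from lists, whose counts are to be set beside the 9.73% of all genes called higher and the 8.76% called lower. Of 15 core macrophage genes, 5 fell and none of the other 10 passed the test in either direction, with a median log2 fold change of −0.46. The list summed to 1133 to 1379 CPM in WT and 667 to 1273 CPM in KSR23. Aif1, which encodes the actin-binding protein Iba1, fell from 46.6 ± 10.6 to 16.4 ± 4.13 CPM (log2 fold change −1.51, SE 0.30, adjusted p = 2.07e-05), Ms4a7 from 39.3 ± 6.07 to 14.8 ± 5.06 CPM (−1.41, adjusted p = 1.20e-04), Cd84 from 4.75 ± 0.807 to 2.55 ± 0.590 CPM (adjusted p = 0.0193) and C1qb, a chain of complement C1q, from 125 ± 12.8 to 77.9 ± 17.4 CPM (adjusted p = 0.0390). The calls of Cd84 and C1qb were lost in 11 and 15 of 24 alternatives, among them 6 and 9 of the 10 in which 1 library was left out. Adgre1, which encodes F4/80 and is named here after its values were seen, was at 21.4 ± 1.42 and 13.1 ± 4.76 CPM with no overlap (adjusted p = 0.103, and 0.0401 with DESeq2).

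Of 13 genes of resident macrophages, 4 fell and 1 rose (median −0.56), and the list summed to 132 to 197 CPM in WT and 74.2 to 129 CPM in KSR23, with no overlap. Pf4, a chemokine of platelets and tissue macrophages, fell from 28.8 ± 7.87 to 9.49 ± 3.90 CPM (adjusted p = 1.40e-04), the lectin Mgl2 from 9.70 ± 2.12 to 3.60 ± 1.14 CPM (adjusted p = 2.61e-04) and the lectin Cd209f from 1.25 ± 0.353 to 0.318 ± 0.195 CPM (adjusted p = 0.00100). F13a1, a clotting factor subunit, rose from 0.636 ± 0.458 to 2.57 ± 0.237 CPM (adjusted p = 0.00402). Among transcription factors of the lineage, Klf4 (8.23 ± 1.21 to 25.5 ± 4.21 CPM, adjusted p = 2.75e-07) and Runx1 (1.65 ± 0.712 to 3.72 ± 1.48 CPM, adjusted p = 0.0194) rose, and the call of Runx1, whose groups overlapped, was lost in 10 of 24 alternatives, among them 5 of the 10 with 1 library left out. Klf4 is also a factor of differentiated epithelium.

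The genes whose products act with the markers were counted in the same way. Of 11 ligands and attractants, 5 rose (Lbp, Icam1, Cx3cl1, Hp and Ccl2) and none of the other 6 passed the test, with a median of 1.12. Ccl2, which draws monocytes from the blood, went from 1.49 ± 0.458 to 4.26 ± 1.71 CPM (log2 fold change 1.52, SE 0.38, adjusted p = 0.00145). Of 6 partner chains and co-receptors, Tlr2 and, by the call described above, Tlr4 rose and Tyrobp and Fcer1g fell, and of 16 related family members 4 rose (Lyz1, Itgae, Ly75 and Itgal) and Lamp1 fell.

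Markers of other leukocytes were mixed. Of 10 monocyte genes 2 (20%, against 18.5% of all genes in either direction) were called. Chil3 rose (0.0835 ± 0.119 to 0.511 ± 0.370 CPM, adjusted p = 0.0419) with overlapping groups. Its call was lost in 14 of 23 alternatives, among them 7 of the 10 with 1 library left out. Plac8 fell (2630 ± 354 to 1178 ± 428 CPM, adjusted p = 0.00108) and took most of the list's summed level (2375 to 3303 CPM in WT, 872 to 2158 in KSR23). In WT Plac8 alone lay above the sum of 8 pan-leukocyte genes (232 to 297 CPM), and which cells made it was not tested. Of 15 neutrophil genes, Ltf rose from 1.89 ± 0.397 to 30.5 ± 12.5 CPM (log2 fold change 4.01, SE 0.37, adjusted p = 1.46e-19) and Elane passed at 0 counts in every WT library and 0 to 7 in KSR23 (adjusted p = 0.00852, but 0.0838 in the quasi-likelihood F test, 0.126 with DESeq2 and 0.0525 with the Y-linked covariate), while Retnlg (15.0 ± 1.41 to 2.18 ± 0.958 CPM, adjusted p = 4.38e-13) and Ngp (5.83 ± 1.18 to 1.04 ± 1.301 CPM, adjusted p = 0.00115) fell. The neutrophil list summed to 59.9 to 129 CPM in WT and 86.3 to 124 CPM in KSR23. Ltf, an iron-binding protein of granules, is also secreted by epithelia.

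Of 8 dendritic cell genes Ccr7 rose and Cd209a and Siglech fell, each with overlapping groups and none past the quasi-likelihood F test (adjusted p = 0.0765, 0.0617 and 0.0610). Of 9 mast cell and eosinophil genes tested, 6 fell, with a median of −1.68, among them the eotaxin receptor Ccr3 (3.13 ± 0.943 to 0.519 ± 0.321 CPM, adjusted p = 2.81e-05) and the granule proteins Prg2, Mcpt4 and Cpa3 (adjusted p = 2.30e-04, 4.99e-04 and 7.80e-04). The list summed to 12.6 to 25.1 CPM in WT and 4.98 to 9.32 CPM in KSR23. Of 8 pan-leukocyte genes, Cd52 and Arhgdib fell and Lcp1, which epithelial cells can also express, rose. None of the 3 passed with the length trend taken out (0.296, 0.133 and 0.0609). The list summed to 232 to 297 CPM in WT and 182 to 426 CPM in KSR23. Of 10 genes of T cells and innate lymphoid cells Nkg7 and Cd3g fell, or 20% against the 8.76% of all genes called lower, and Nkg7 did not pass with the length trend taken out (0.303).

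**Figure D5:**
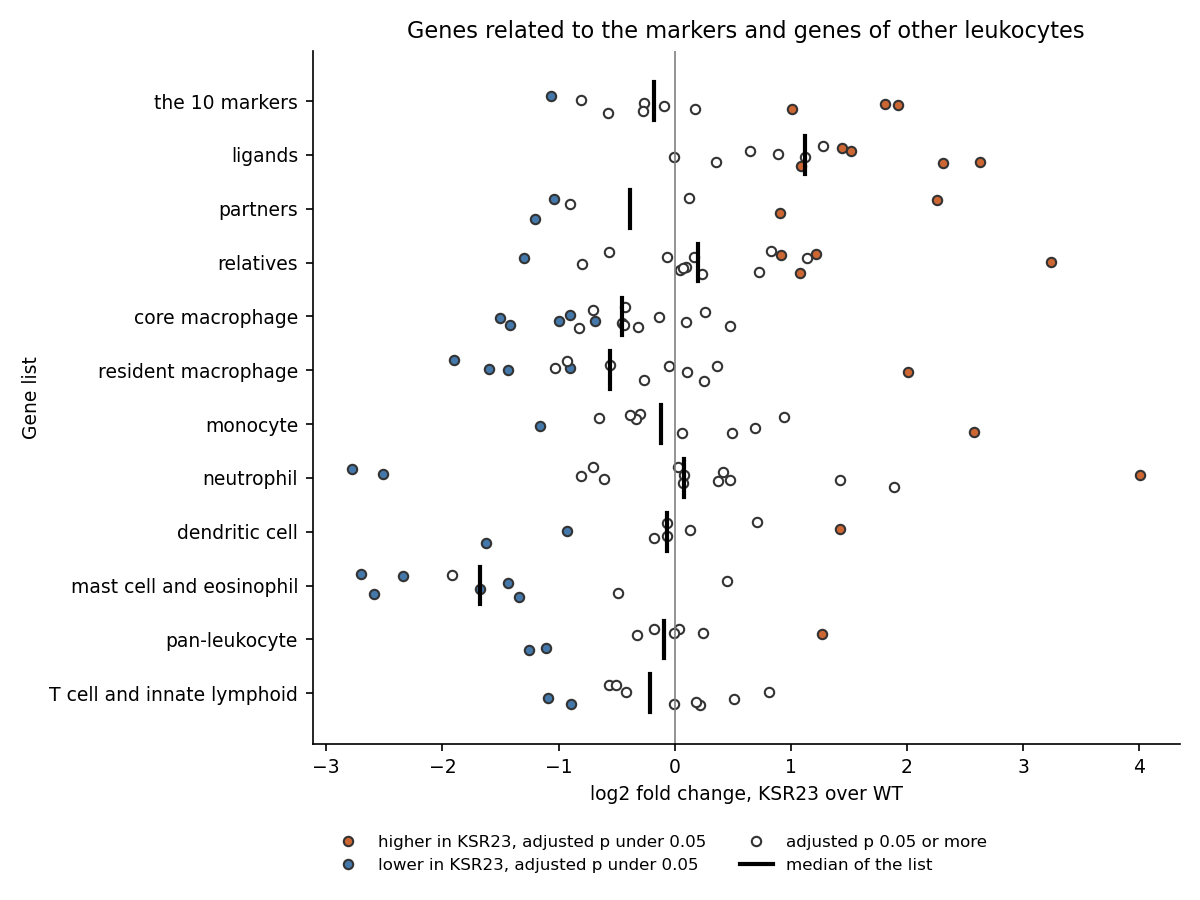
Log2 fold change (KSR23 over WT) of each gene of 11 of the lists and of the 10 markers, 1 point a gene (orange, higher and blue, lower at an adjusted p under 0.05; white, not called), with the median of each list as a bar; Elane, at 0 counts in WT, is not drawn. The medians of the core and resident macrophage lists lie at −0.46 and −0.56, that of the ligands at 1.12, and that of mast cells and eosinophils at −1.68.

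The tissue itself differed between the libraries. The defining genes of intestinal epithelium were present in all libraries, and the 8 listed summed to 1639 to 3591 CPM in WT and 3894 to 6494 CPM in KSR23, with no overlap. That separation rested on Krt20, a keratin of differentiated enterocytes (359 and 1674 CPM in the mean): without it, a sum taken after the data were seen, the other 7 genes ran from 1251 to 3268 CPM in WT and from 1869 to 4339 CPM in KSR23 and overlapped. The 6 genes of smooth muscle summed to 1612 to 3666 CPM in WT and 1681 to 2269 in KSR23, those of fibroblasts to 891 to 1218 and 632 to 999, and those of endothelium to 122 to 174 and 116 to 182. Of 6 erythroid genes 4 (the globin genes) were at 0 in every library, and the list summed to 10.2 to 49.6 and 17.0 to 56.8 CPM. Exocrine pancreas genes were present in WT (75.0 to 110 CPM summed over 6 genes) and near absent in KSR23 (0.596 to 1.16 CPM), and 5 of the 5 tested fell. The part of these differences in tissue content in the values of the 10 markers was not tested.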

How the data were processed

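The deposited values were raw counts of reads per gene, 1 table a library. Per the labels, a low-input kit made and amplified cDNA from oligo-dT primed total RNA, which a transposase then tagged, and single ends of 75 bases were read. No molecular identifiers were used, so floors cover counting error only. The authors mapped the reads to mm10 with TopHat2 2.1.0 and counted them with HTSeq 0.6.1p1, and the deposited counts were neither normalized nor pooled. The counter's own totals were left out. Groups and replicate numbers came from the sample titles. The labels do not say which libraries came from which animal, and p-values measure the spread between these libraries.

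A gene was kept if any library held 5 counts of it or more (17632 genes). The fit in edgeR 4.0.16 (R 4.3.3) used TMM factors and no term but the group. Its likelihood ratio test, the study's own, was applied with Benjamini-Hochberg adjustment over all 17632 genes and a threshold of 0.05. Unless another test is named, adjusted p-values are from that fit. Alternatives were the quasi-likelihood F test, DESeq2 1.42.0, other scalings and filters, replicates 1 to 3 alone, each library left out, a replicate block, a Y-linked covariate and offsets for trends with transcript length or GC content (lowess span 0.3). The scripts were tested on simulated data. Positions are from GENCODE M21, in which 94.5% of the symbols were found. Adgre1 and Siglecf were found under older symbols, and Ly6g had no row.

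Results for some genes of the lists are not reported here. The markers and the 20 lists were chosen with earlier results of these data known. Named are every marker, genes of the ligand, partner and relative lists that a sentence ties to a marker, at most 4 called genes with the smallest adjusted p of each other list, and the 5 genes most like Csf1r and Cd14.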

Additional observations from a re-analysis of the deposited data

Results flagged for a closer look

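Among 122 groups of 5 libraries scanned for markers and named genes, 4 had 1 library far from the others on the log2 CPM scale, where chance gives about 6.1. Itgax in KSR23 replicate 2 was low, at 1.19 (69 counts) against 2.24 in the next library. Runx1 in WT replicate 3 was high, at 1.56 (79 counts) against 0.69. Ccr3 in KSR23 replicate 2 was low, at −3.53 (1 count) against −1.01. Mcpt4 in WT replicate 2 was low, at −0.46 (19 counts) against 1.13.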

How the results depend on the processing

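Over the 10 markers and 24 alternatives, 208 of the values kept their direction and their side of the threshold, 23 lost a call, 5 gained one and 4 changed sign. The calls lost were of Itgam (14), Cd163 (4), Cd68 (3) and Cd14 (2), and those gained were of Fcgr1 (4) and Cx3cr1 (1). Itgax ran from −0.20 to 0.12 when a library was left out, turning sign without WT replicate 2 (0.01) or KSR23 replicate 2, and with length-trend offsets Lyz2 turned to 0.071, Mrc1 to −0.18 and Itgb2 to −0.040. With the Y-linked covariate Itgb2 turned to −0.077, Fcgr2b to −0.030 and Lamp2 to −0.32. Lamp2 also turned to −0.029 with library totals alone, −0.14 with length-trend offsets and −0.031 with GC-trend offsets, and ran from −0.080 to 0.24 when a library was left out, negative without KSR23 replicate 3. Csf1, near 0 in the reported fit, turned to 0.0048 in the quasi-likelihood F test, 0.011 with DESeq2, 0.011 with RLE size factors, 0.080 with library totals alone, 0.0025 with no filter, 0.82 with the Y-linked covariate and 0.024 with libraries thinned to the smallest total, and ran from −0.60 to 0.34 when a library was left out, at adjusted p of 0.404 or more in all 24 alternatives. The causes were not tested. Of the markers 4 were called, 0 in replicates 1 to 3 alone by either test, 2 with the Y-linked covariate and 2 with length-trend offsets, and 3 to 5 when a library was left out. Over all genes, 3261 were called, 579 in replicates 1 to 3 alone (140 by the quasi-likelihood F test), and 2370 to 3802 when a library was left out. Of the 173 other list genes tested, 58 were called, 10 in replicates 1 to 3 alone (5 by the quasi-likelihood F test), and 43 to 68 when a library was left out. The fit to replicates 1 to 3 holds 6 libraries in place of 10, and it leaves out replicates 4 and 5, which lay between the others at most genes. Same-numbered libraries of the groups did not deviate together (correlations of −0.548, 0.248, −0.462, 0.113 and 0.215 for replicates 1 to 5), so the numbers were not taken as pairs. With the replicate block 2202 genes, 3 markers and 45 list genes were called, and with the block and the quasi-likelihood F test 1184, 2 and 29. Depth limits Cd163 most among the markers, with 19 to 28 counts in WT.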

Other observations

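Spi1, which encodes PU.1, was singled out after its values were seen because they differed so widely within each group. In WT replicates 1 to 5 its counts were 18, 248, 393, 182 and 94, and in those of KSR23 they were 826, 17, 17, 345 and 30. The groups overlapped over their whole range (log2 fold change −0.70, SE 0.87, adjusted p = 0.641 in edgeR's likelihood ratio test). Csf1 too was high in KSR23 replicates 1 and 4 and low in the others, with 775, 47, 27, 464 and 13 counts. In WT it had 55, 220, 148, 177 and 61. The pattern was thus not particular to Spi1, and what gave rise to it was not tested.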
